A study of Mus musculus with 6 samples.

Results

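The subunits of the exocyst other than Exoc3 were examined in embryoid bodies (EBs) of mouse embryonic stem cells (ESCs) with and without Tnfaip2. The 8 genes Exoc1, Exoc2, Exoc4, Exoc5, Exoc6, Exoc6b, Exoc7 and Exoc8 were taken by symbol, as the genes whose proteins build the complex together with EXOC3. They are 8 of the 52636 genes in the count table, and all 8 were among the 17849 genes that passed edgeR's filter on low counts. RNA was sequenced for 3 replicates of EBs from the parental WT line, E14, and 3 replicates of EBs from a Tnfaip2-/- line derived from it. The Tnfaip2-/- line is 1 clone, made with CRISPR-Cas9, in which Tnfaip2 carries a premature stop codon. Aggregates grew in hanging drops for 3 days and were then attached to gelatin and left to differentiate for 3 days. Each genotype is thus 1 line, and an effect of the deletion cannot be told apart from a difference between clones. The replicates of a line carry at most the spread from culture to culture. The paper calls them biological replicates, and the labels do not say whether they were grown as separate cultures. Total counts were 22489903 to 23804489 in WT samples and 21765931 to 22480962 in Tnfaip2-/- samples. Levels are given as CPM, the counts per 1000000 counts, after scaling by edgeR's TMM factors. Tnfaip2 itself was counted 7, 4 and 7 times in WT and 0, 2 and 2 times in Tnfaip2-/- samples, below the filter. Its summed counts, 18 against 4, gave a WT to Tnfaip2-/- ratio of 4.39 after scaling by library totals and TMM factors. The 95% interval of this ratio, from 1.44 to 17.8, covers counting error only.

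The exocyst is a tether that holds secretory vesicles at the plasma membrane until SNARE proteins fuse them with it. Its proteins assemble from a pair of subcomplexes, EXOC1 to EXOC4 and EXOC5 to EXOC8, and small GTPases of the RAL, RAB and ARF families recruit or activate them. EXOC6 and EXOC6B are alternative versions of a single subunit, and mouse embryos that lack Exoc4 die around gastrulation, the stage that differentiating EBs resemble. TNFAIP2 and EXOC3 belong to one protein family, and the comparison asks how the other subunits were expressed when Tnfaip2 was deleted.

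Most exocyst subunits were higher in the Tnfaip2-/- EBs. Exoc6 and Exoc4 rose about 1.6-fold and 1.5-fold, Exoc2, Exoc6b, Exoc7 and Exoc5 rose by smaller amounts, and Exoc1 and Exoc8 did not pass the test. In edgeR's quasi-likelihood test with Benjamini-Hochberg adjustment, 6 of the 8 subunits had an adjusted p below 0.05, against 67.7% of all tested genes. All 6 were higher in the Tnfaip2-/- EBs, against 34% of all tested genes, and 0 were lower, against 33.7%. No subunit was lower at an unadjusted p below 0.05 either, nor with DESeq2. A call with a change of at least 1.5-fold was made for 2 subunits, Exoc4 and Exoc6, both higher, against 24.8% of all tested genes in either direction and 13.9% that were higher. The share of subunits called in either direction was thus near that of the whole table, and the directions were unequal. The median log2 fold change was 0.27 over the 8 subunits and 0.00 over all tested genes, while the median size of a change regardless of sign was 0.27 and 0.30. All samples of a genotype lay on one side of all samples of the other for 7 of the 8 subunits, Exoc8 included, against 69.4% of all tested genes. RNA came from whole EBs, so that a change in the number of cells of a type and a change in RNA per cell cannot be told apart.

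**Figure D1:**
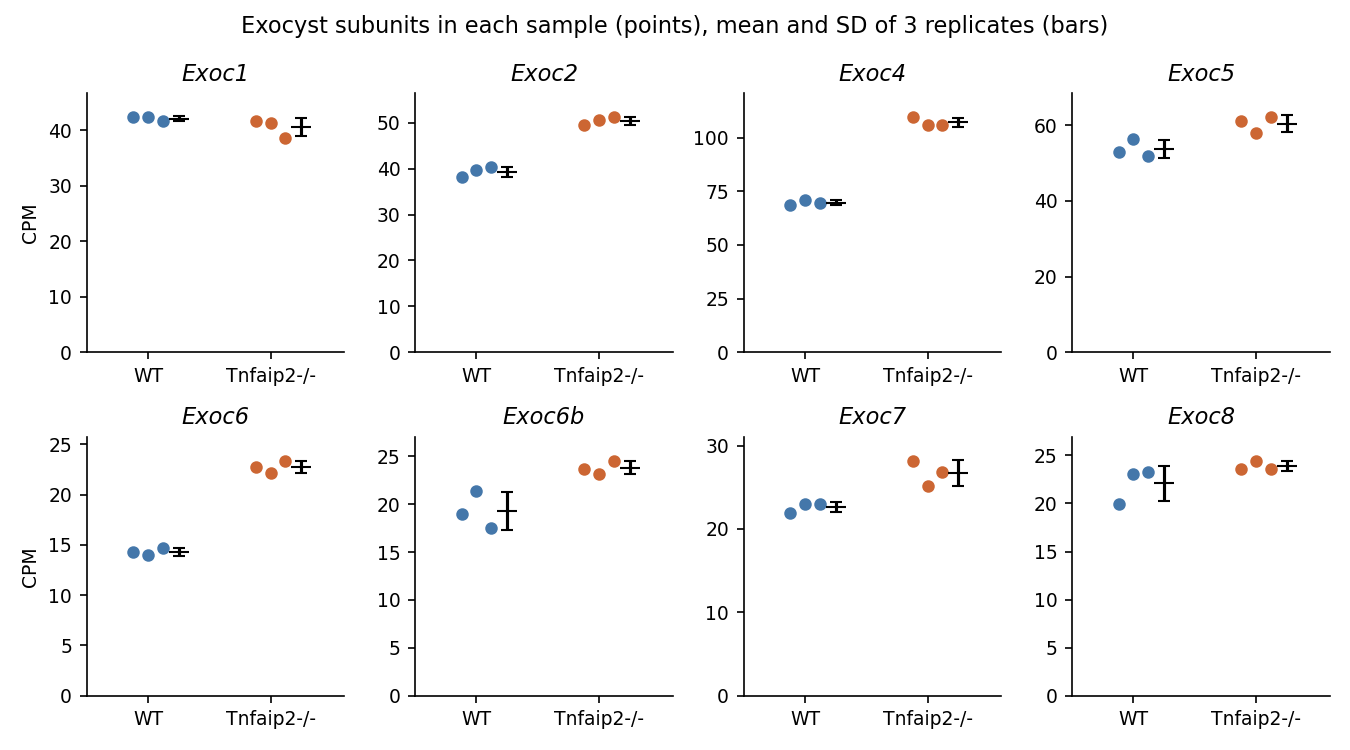
CPM of each exocyst subunit in the 3 WT and 3 Tnfaip2-/- samples (points), with the mean and SD of each genotype (n = 3) beside them and a vertical axis from 0 in each panel. The points of Exoc4 and Exoc6 are the farthest apart between genotypes relative to their level, and those of Exoc1 overlap.

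EXOC4 (SEC8) is a core subunit of the first subcomplex. Exoc4 (ENSMUSG00000029763, chromosome 6, 33249085 to 33973979 in GRCm38) had 68.7, 70.9 and 69.4 CPM in the WT EBs and 109.6, 105.8 and 105.9 CPM in the Tnfaip2-/- EBs. Every Tnfaip2-/- sample was far above every WT sample, and the spread within a genotype was small. Its mean rose from 69.7 ± 1.11 to 107.1 ± 2.14 CPM (SD, n = 3), a change of 0.62 on the log2 scale (standard error 0.0339, edgeR quasi-likelihood adjusted p = 4.32e-21). This is a fold of 1.54 with a 95% interval from 1.47 to 1.61. The size of the change exceeded that of 76.4% of all tested genes.

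EXOC2 (SEC5), in the same subcomplex, is a direct effector of RALA and RALB. Exoc2 (ENSMUSG00000021357, chromosome 13, 30813919 to 30974093) had 38.2, 39.7 and 40.3 CPM in the WT EBs and 49.5, 50.6 and 51.3 CPM in the Tnfaip2-/- EBs. The genotypes did not overlap. The log2 fold change was 0.36 (standard error 0.0428, edgeR quasi-likelihood adjusted p = 5.28e-10). EXOC1 (SEC3) binds phosphoinositides of the plasma membrane and marks sites where vesicles dock. Exoc1 (ENSMUSG00000036435, chromosome 5, 76529311 to 76570294) had 42.4, 42.3 and 41.6 CPM in the WT EBs and 41.7, 41.3 and 38.7 CPM in the Tnfaip2-/- EBs. The genotypes overlapped, as the highest Tnfaip2-/- sample was level with the lowest WT sample. The log2 fold change was -0.05 with a 95% interval from -0.14 to 0.04 (edgeR quasi-likelihood adjusted p = 0.284), which leaves out a change as large as that of Exoc2 or Exoc4. Exoc3, the remaining subunit of this subcomplex, had 47.3, 48.1 and 47.2 CPM in the WT EBs and 48.2, 45.9 and 48.5 CPM in the Tnfaip2-/- EBs. Its log2 fold change was 0.00 (95% interval -0.08 to 0.08, edgeR quasi-likelihood adjusted p = 0.988), so within this subcomplex Exoc2 and Exoc4 passed the test and Exoc1 and Exoc3 did not. Whether the changes of these genes differed from each other was not tested.

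EXOC6 and EXOC6B (SEC15) bind RAB11 on recycling vesicles and sit in the other subcomplex. Exoc6 (ENSMUSG00000053799, chromosome 19, 37550418 to 37684059) had 14.3, 14.0 and 14.7 CPM in the WT EBs and 22.7, 22.1 and 23.4 CPM in the Tnfaip2-/- EBs. All Tnfaip2-/- samples were well above all WT samples. Its mean rose from 14.3 ± 0.356 to 22.8 ± 0.630 CPM (SD, n = 3), a change of 0.67 on the log2 scale (standard error 0.0621, edgeR quasi-likelihood adjusted p = 3.53e-13) and the largest among the subunits. The fold was 1.59 with a 95% interval from 1.46 to 1.73. Exoc6 had the lowest count of any subunit, 313 in WT replicate 2, for which counting alone gives a 95% interval from 279.3 to 349.7. Exoc6b (ENSMUSG00000033769, chromosome 6, 84618487 to 85069513) had 19.0, 21.4 and 17.5 CPM in the WT EBs and 23.7, 23.2 and 24.6 CPM in the Tnfaip2-/- EBs. The WT samples of Exoc6b were spread more widely than those of Exoc6, yet all lay below the Tnfaip2-/- samples. The log2 fold change of Exoc6b was 0.30 (standard error 0.0624, edgeR quasi-likelihood adjusted p = 3.54e-05). When the null hypothesis was a 1.5-fold change, none of the 8 subunits passed, since edgeR gave adjusted p = 0.160 for Exoc6 and adjusted p = 0.260 for Exoc4. In that test 1 subunit, Exoc6, had an unadjusted p below 0.05, and it was run with edgeR alone.

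The balance between both SEC15 genes was compared within each sample, where no scaling between libraries is needed. The log2 ratio of Exoc6b to Exoc6 counts was 0.42, 0.62 and 0.25 in WT and 0.06, 0.07 and 0.07 in Tnfaip2-/- samples. All Tnfaip2-/- samples were below all WT samples, and they were closer together. The mean ratio differed by -0.36 on the log2 scale (exact two-sided permutation test, p = 0.1), and 0.1 is the smallest p that 3 against 3 samples can give. Per kilobase of each gene's principal transcript, Exoc6 stood at 1.15, 1.00 and 1.29 times Exoc6b in the WT EBs and at 1.47, 1.47 and 1.46 times in the Tnfaip2-/- EBs. This level depends on the length used, since per kilobase of all annotated exons, chosen after the data had been seen, Exoc6 stood at 3.20, 2.79 and 3.59 times Exoc6b in WT and at 4.10, 4.08 and 4.07 times in Tnfaip2-/- samples. The exons of Exoc6 share no stretch of a read's length, 51 bases, with Exoc6b, so that an error-free read of one does not match the other.

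EXOC5 (SEC10) joins the SEC15 subunits to the rest of the complex and binds ARF6. Exoc5 (ENSMUSG00000061244, chromosome 14, 49004090 to 49066653) had 52.8, 56.4 and 51.8 CPM in the WT EBs and 61.0, 57.8 and 62.2 CPM in the Tnfaip2-/- EBs. The genotypes did not overlap, by a narrow margin. The log2 fold change was 0.17 (standard error 0.041, edgeR quasi-likelihood adjusted p = 0.000316). EXOC7 (EXO70) binds membrane phosphoinositides, as EXOC1 does. Exoc7 (ENSMUSG00000020792, chromosome 11, 116288001 to 116307233) had 22.0, 23.0 and 23.0 CPM in the WT EBs and 28.2, 25.2 and 26.8 CPM in the Tnfaip2-/- EBs. All Tnfaip2-/- samples were higher, with more spread than in the WT EBs. The log2 fold change was 0.24 (standard error 0.0559, edgeR quasi-likelihood adjusted p = 0.000212). EXOC8 (EXO84) is a further effector of RAL GTPases. Exoc8 (ENSMUSG00000074030, chromosome 8, 124893108 to 124897705), whose principal transcript has 1 exon, had 19.99, 23.0 and 23.2 CPM in the WT EBs and 23.6, 24.5 and 23.6 CPM in the Tnfaip2-/- EBs. The genotypes did not overlap, but WT replicates 2 and 3 lay close to the Tnfaip2-/- samples and WT replicate 1 lay apart. Its log2 fold change was 0.11 with a 95% interval from -0.01 to 0.23 (edgeR quasi-likelihood adjusted p = 0.086), and with library totals in place of TMM factors it was 0.14 with an adjusted p = 0.0327. Over all 13 alternatives that test for any change, the log2 fold change of Exoc8 ranged from 0.04, without WT replicate 1, to 0.14, and its adjusted p from edgeR or DESeq2 from 0.0327 to 0.619. Antisense genes overlap 2.94% of the exon bases of Exoc5 (Ap5m1) and 6.71% of those of Exoc7 (Gm26730), and the library kit does not mark strand, so that reads from these stretches cannot be assigned.

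**Figure D2:**
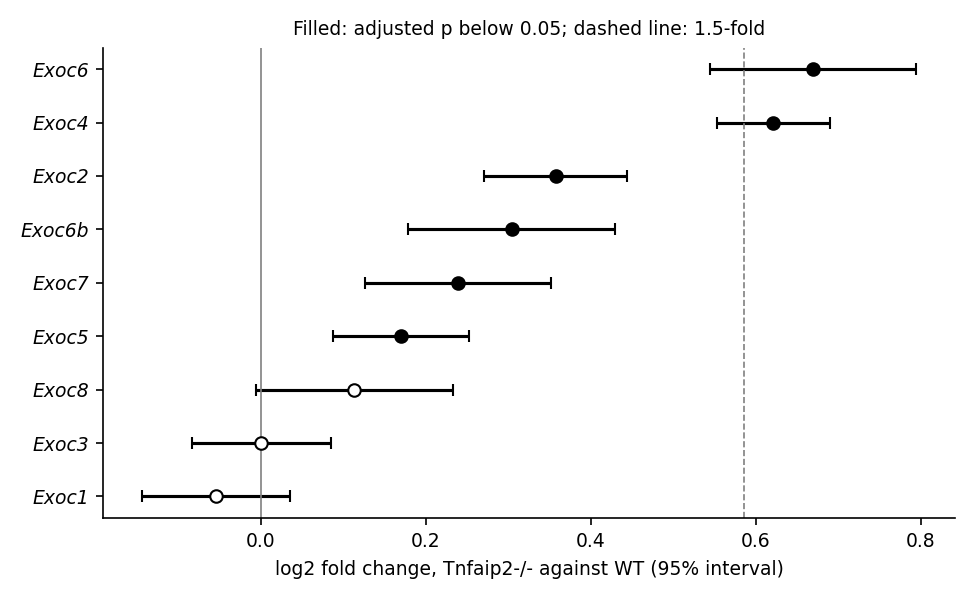
Log2 fold change of each exocyst subunit, Exoc3 included, in Tnfaip2-/- against WT EBs (points) with its 95% interval (bars), filled where the adjusted p was below 0.05. Exoc6 and Exoc4 lie to the right of the dashed line at 1.5-fold and their intervals cross it, while the intervals of Exoc1, Exoc3 and Exoc8 cross 0.

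Levels were compared between subunits as CPM per kilobase of the principal transcript. In the WT EBs, Exoc4 had the highest level, 14.4 ± 0.230 (SD, n = 3), followed by Exoc1 with 12.5 ± 0.128 and Exoc2 with 9.001 ± 0.248. Exoc7 had 6.79 ± 0.176, Exoc8 had 4.80 ± 0.397, Exoc5 had 4.23 ± 0.191, Exoc6 had 4.04 ± 0.100 and Exoc6b had 3.55 ± 0.366. Neighbours in this order were separated in all replicates except Exoc8 and Exoc5, and Exoc5 and Exoc6. Exoc6 and Exoc6b were all but level, since the lowest Exoc6 value was 3.945 and the highest Exoc6b value was 3.941. On this scale the 3 subunits of the first subcomplex had higher per-length levels than the 5 of the other in the WT EBs. In the Tnfaip2-/- EBs the order was Exoc4, Exoc1, Exoc2, Exoc7, Exoc6, Exoc8, Exoc5 and Exoc6b. Exoc4 stood at 22.2 ± 0.444 and Exoc1 at 12.03 ± 0.485, and of the neighbours in this order Exoc1 and Exoc2 overlapped. The order depends on the length used. Per kilobase of all annotated exons, chosen after the data had been seen, Exoc1 was 6th in both genotypes, and Exoc2 ranked 1st and Exoc4 2nd in the WT EBs.

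Transcript levels were then summed over the 8 subunits, without Exoc3, which had a mean of 47.5 CPM in both genotypes. The sum was 277.3, 290.8 and 281.5 CPM in the WT EBs and 360.1, 350.6 and 356.5 CPM in the Tnfaip2-/- EBs. The mean was 25.6% higher in the Tnfaip2-/- EBs, and every Tnfaip2-/- sample was above every WT sample (exact two-sided permutation test, p = 0.1, the smallest possible). Per kilobase, the summed level of Exoc1, Exoc2 and Exoc4 was 27.4% higher and that of Exoc5 to Exoc8 was 22.9% higher. The make-up of the summed per-length level also differed between genotypes. Exoc4 made up 24.3% ± 0.133 of it in the WT EBs and 29.8% ± 0.267 in the Tnfaip2-/- EBs (SD, n = 3). The share of Exoc1 was 21.1% ± 0.494 and 16.1% ± 0.628, and that of Exoc6 was 6.81% ± 0.255 and 8.62% ± 0.232. The shares of Exoc5, Exoc7 and Exoc8 were lower in the Tnfaip2-/- EBs, with 7.12% ± 0.231 and 6.38% ± 0.202 for Exoc5, 11.4% ± 0.152 and 10.7% ± 0.483 for Exoc7, and 8.09% ± 0.546 and 6.98% ± 0.218 for Exoc8. Shares add up to a fixed total, and the mean per-length levels of these subunits were not lower. In WT and Tnfaip2-/- EBs they were 4.23 and 4.75 for Exoc5, 6.79 and 8.01 for Exoc7, and 4.80 and 5.20 for Exoc8. For each of these 6 shares the genotypes did not overlap (exact two-sided permutation test, p = 0.1). The share of Exoc2 was 15.2% ± 0.301 and 15.5% ± 0.434 and that of Exoc6b was 5.98% ± 0.544 and 5.88% ± 0.175, both within the spread between replicates. Per kilobase of all annotated exons the shares were different, 10.6% and 8.07% for Exoc1, 16.7% and 20.3% for Exoc4 and 12.3% and 15.4% for Exoc6, while the direction and separation of the same 6 shares held. On that length the summed level of Exoc1, Exoc2 and Exoc4 was below that of Exoc5 to Exoc8 in every sample, and the sums were 30.2% and 24% higher in the Tnfaip2-/- EBs.

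**Figure D3:**
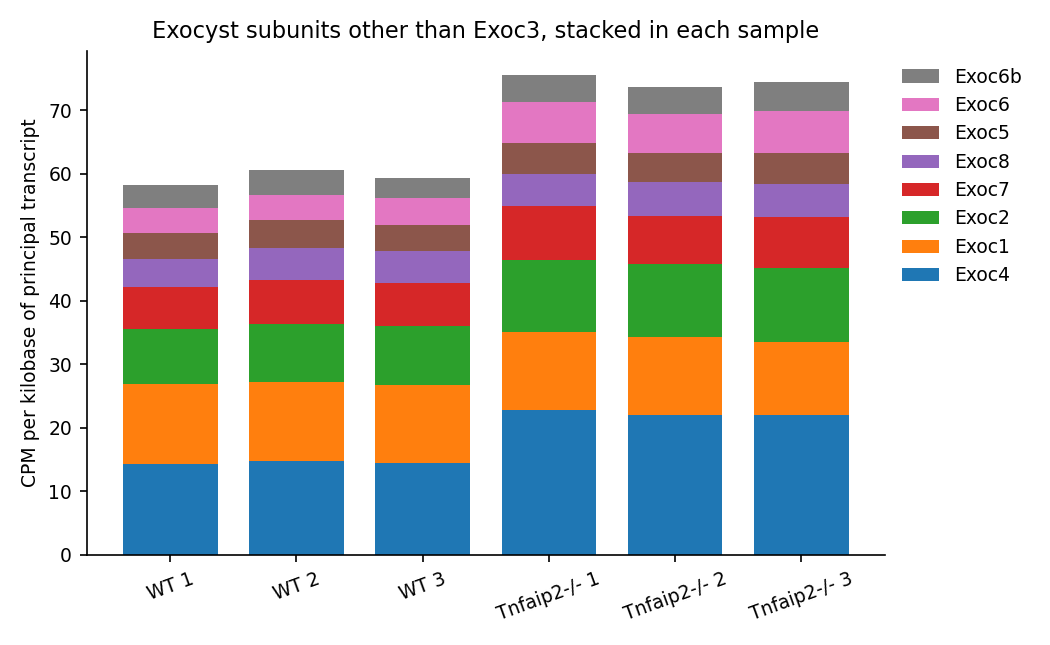
CPM per kilobase of the principal transcript of the 8 subunits, stacked for each of the 6 samples, with a vertical axis from 0. The stacks reach 58.2 to 60.6 in the WT samples and 73.7 to 75.6 in the Tnfaip2-/- samples, and the segment of Exoc4 grows most.

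The sequences before the start sites were compared because 6 subunits rose together. All 8 subunits matched the RefSeq promoter table (GRCm38.p6), and 250 bases before the first listed start of each gene were searched on both strands for 7 motifs. The table holds such a window for 27025 genes. The NRF1 motif, GCGC repeated after any 2 bases, occurs in 5.09% of these windows and was found before Exoc6 and Exoc8. The CCAAT box (CCAAT) occurs in 34.5% of the windows and was found before Exoc1 and Exoc4. The GC box (GGGCGG, in 32.9% of the windows) was found before Exoc1, Exoc6, Exoc7 and Exoc8, and the YY1 motif AAGATGGC (1.59%) before Exoc7. No match to the ETS core CCGGAAG (7.05%), the E-box CACGTG (6.05%) or the TATA box TATAAA (13%) was found before the first listed start of any of the 8 genes. Of the windows of later starts listed for Exoc1, 3 held an ETS core match, and 2 of these also held an E-box match. The NRF1 and CCAAT matches were thus each found before a subunit that rose and a subunit that did not pass the test. These 4 sequences are shown 5′ to 3′ on the strand of the gene, with NRF1 and CCAAT matches in capitals and any annotated exon left out. ATTGG is the CCAAT box read from the opposite strand, and in Exoc1 a match on either strand abuts. The sequences lie at chr6:33248878-33249084 (+) for Exoc4, chr19:37550168-37550417 (+) for Exoc6, chr5:76529057-76529306 (+) for Exoc1 and chr8:124897706-124897885 (-) for Exoc8.
Exoc4: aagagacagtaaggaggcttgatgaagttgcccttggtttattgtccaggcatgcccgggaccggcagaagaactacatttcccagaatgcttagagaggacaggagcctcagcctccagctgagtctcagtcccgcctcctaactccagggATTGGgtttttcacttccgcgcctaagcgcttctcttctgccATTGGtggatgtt
Exoc6: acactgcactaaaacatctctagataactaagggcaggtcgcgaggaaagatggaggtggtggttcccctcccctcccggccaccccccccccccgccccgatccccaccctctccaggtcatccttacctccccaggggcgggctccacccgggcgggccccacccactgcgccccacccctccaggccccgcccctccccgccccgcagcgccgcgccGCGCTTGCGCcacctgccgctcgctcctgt
Exoc1: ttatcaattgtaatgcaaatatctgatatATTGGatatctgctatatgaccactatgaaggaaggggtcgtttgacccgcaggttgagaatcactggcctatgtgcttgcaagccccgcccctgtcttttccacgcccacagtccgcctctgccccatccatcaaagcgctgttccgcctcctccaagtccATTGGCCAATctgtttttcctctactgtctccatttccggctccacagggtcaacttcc
Exoc8: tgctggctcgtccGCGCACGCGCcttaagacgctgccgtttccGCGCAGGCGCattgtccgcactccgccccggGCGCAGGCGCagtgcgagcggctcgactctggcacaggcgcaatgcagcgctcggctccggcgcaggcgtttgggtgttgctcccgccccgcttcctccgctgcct

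Genes whose pattern over the 6 samples was most like that of the subunits with the highest and the lowest fold change were searched among 10118 genes whose mean was 10 CPM or more. Likeness was the root mean square difference in log2(CPM + 0.5) after each gene was centred on its own mean. For Exoc6 the nearest genes were Trim12c (0.0253), Ak4, an adenylate kinase (0.0269), and Slc12a2, a sodium, potassium and chloride cotransporter (0.0272). For Exoc1, which did not pass the test, they were Bmpr1a, a BMP receptor (0.0128), Srgn, a proteoglycan core protein (0.0139), and Cnot8, a deadenylase subunit (0.0154). Bmpr1a itself was called, near the threshold (edgeR quasi-likelihood adjusted p = 0.0489). Replicates of a genotype lay close together, so that genes of like fold change score as near. Whether any of these genes share regulation was not tested.

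Among Exoc3 and its paralogues, 3 of 5 genes were tested. Exoc3l fell from 13.5 ± 0.326 CPM in WT to 9.57 ± 1.16 CPM in Tnfaip2-/- EBs (SD, n = 3), a change of -0.49 on the log2 scale (edgeR quasi-likelihood adjusted p = 6.74e-07). Antisense Gm20163 overlaps 14.4% of its exon bases. Exoc3l2 was counted 13, 23 and 13 times in WT and 46, 37 and 30 times in Tnfaip2-/- samples, so that its genotypes did not overlap at this low level. Its log2 fold change was 1.24 (95% interval 0.74 to 1.74, edgeR quasi-likelihood adjusted p = 2.59e-05). Exoc3l4 had between 1 and 3 counts in every sample and was, like Tnfaip2, not tested.

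GTPases that bind the exocyst, listed with the exchange factor gene Rab3ip, moved in both directions. Of these 11 genes, 3 (27.3%) were higher in the Tnfaip2-/- EBs, 5 (45.5%) were lower and 3 did not pass the test, with a median log2 fold change of -0.07. Over all tested genes 34% were higher and 33.7% were lower. Rala and Ralb, whose products bind EXOC2 and EXOC8, rose from 52.7 ± 3.85 to 82.7 ± 3.44 CPM and from 38.9 ± 0.951 to 51.8 ± 1.08 CPM (SD, n = 3). Their log2 fold changes were 0.65 and 0.41 (edgeR quasi-likelihood adjusted p = 1.59e-18 and 7.85e-12). Arf6, whose product binds EXOC5, fell from 80.5 ± 1.82 to 55.4 ± 2.12 CPM, a change of -0.54 on the log2 scale (edgeR quasi-likelihood adjusted p = 3.53e-17), with 13.6% of its exon bases under antisense Gm9887. The genes of RAB11, which recruits SEC15 proteins to recycling vesicles, moved in opposite directions. Rab11b had a log2 fold change of -0.50 (edgeR quasi-likelihood adjusted p = 8.93e-17), with 5.37% of its exon bases under antisense Gm17251. Rab11a rose from 77.8 ± 1.78 to 102.3 ± 0.514 CPM (SD, n = 3), a change of 0.39 on the log2 scale (edgeR quasi-likelihood adjusted p = 1.90e-14), and exons of Gm47308 cover 3.58% of its exon bases on the same strand.

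Other proteins that bind the exocyst were also divided. Of 13 genes, 5 (38.5%) were higher, 5 (38.5%) were lower and 3 did not pass the test, against 34% and 33.7% of all tested genes that were higher and lower. Arhgef2, a guanine nucleotide exchange factor, fell from 95.2 ± 1.33 CPM in WT to 58.2 ± 2.17 CPM in Tnfaip2-/- EBs (SD, n = 3), a change of -0.71 on the log2 scale (edgeR quasi-likelihood adjusted p = 3.6e-22), and the scaffold gene Dlg3 had a log2 fold change of -0.42. The scaffold gene Dlg1 rose by 0.39 on the log2 scale, and Sh3bp1, a RAC GTPase-activating protein, had 0.35. Exons of Gm49510 cover 61.5% of the exon bases of Sh3bp1 on the same strand, so that the value of Sh3bp1 is uncertain. Of 19 genes for plasma membrane SNAREs and their regulators, which act after tethering, 11 (57.9%, against 34%) were higher, 7 (36.8%, against 33.7%) were lower and 1 did not pass the test. The syntaxin gene Stx3 fell from 143.6 ± 2.93 to 79.3 ± 3.25 CPM, a change of -0.86 on the log2 scale (edgeR quasi-likelihood adjusted p = 8.56e-27). Snap25, a SNARE of neurons, had the lowest log2 fold change of the list, -1.78, at a mean of 1.20 CPM in the WT EBs and 0.344 CPM in the Tnfaip2-/- EBs.

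Tethering complexes of other membranes gave a measure of how such genes moved in these EBs. Of the 38 genes in 5 lists, 17 were higher in the Tnfaip2-/- EBs, 11 were lower and 10 did not pass the test, which is 73.7% called in either direction and 44.7% higher, against 67.7% and 34% of all tested genes. Their median log2 fold change was 0.03. Of the 38 genes, 1 was called with a change of at least 1.5-fold, against 24.8% of all tested genes. All 8 genes of the COG complex, a tether of the Golgi, passed the test, 6 higher and 2 lower, with a median log2 fold change of 0.16. Cog7 and Cog1 had 0.40 and 0.37, and Cog5 and Cog6 had -0.41 and -0.16. Antisense genes overlap 22.4% of the exon bases of Cog1 and 24% of those of Cog5. Of the 5 genes of the GARP and EARP complexes, which tether vesicles returning from endosomes, Vps53 (0.43) and Vps54 (0.33) were higher and Vps52 (-0.20) was lower on the log2 scale. Of the 3 genes of the Dsl1 complex, a tether of the endoplasmic reticulum, Nbas was lower (-0.21) and the others did not pass the test. Among 8 genes of the HOPS and CORVET complexes, tethers of late and early endosomes, 3 were higher and 2 were lower. Vps41 rose from 89.95 ± 2.98 to 135.0 ± 0.807 CPM (SD, n = 3), a change of 0.59 on the log2 scale (edgeR quasi-likelihood adjusted p = 3.73e-21), and Vps11 had 0.16. Vps33a and Vps16 had -0.40 and -0.15. Among 14 genes of the TRAPP complexes, which act at the Golgi, 6 were higher, led by Trappc2l (0.42) and Trappc8 (0.40), and 5 were lower, led by Trappc12 (-0.42) and Trappc10 (-0.40). Each of these lists apart from Dsl1 had called genes in both directions, whereas the called exocyst subunits had a single direction. Whether the exocyst differed from these complexes was not tested.

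**Figure D4:**
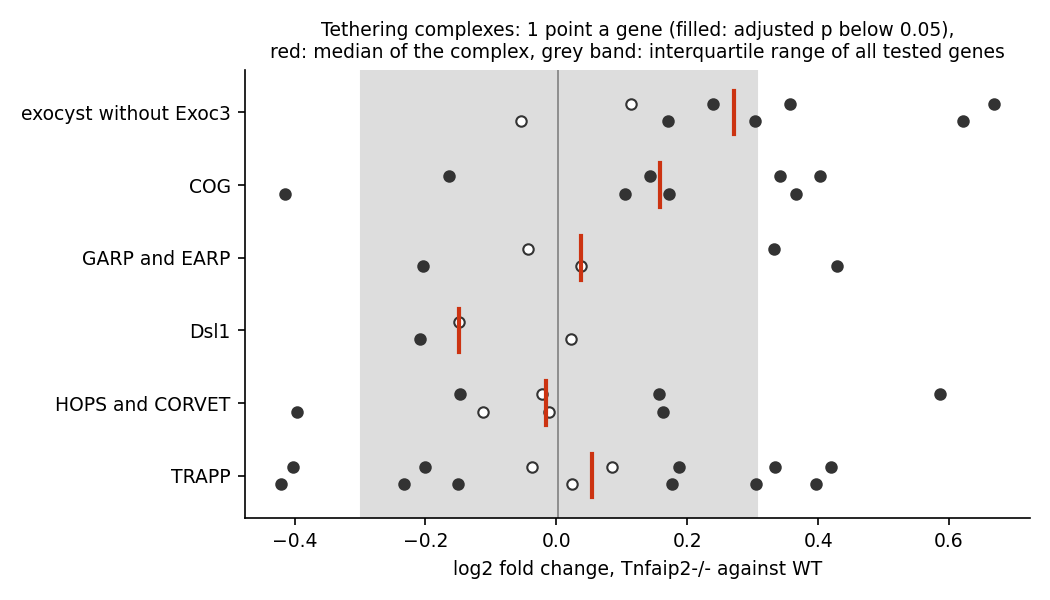
Log2 fold change in Tnfaip2-/- against WT EBs of each gene of 6 groups of tethering complexes (points, filled where the adjusted p was below 0.05), with the median of each group (red) and the interquartile range of all tested genes (grey band, from -0.30 to 0.31). The exocyst subunits lie between -0.05 and 0.67, and the other complexes extend to -0.42.

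Markers of cell states that EBs can hold also differed between the genotypes, in a table where 67.7% of all tested genes were called, 34% higher and 33.7% lower. All 6 markers of the primitive streak were called lower in the Tnfaip2-/- EBs. The genotypes overlapped for Tbx6 (edgeR quasi-likelihood adjusted p = 0.0368), which was not called by DESeq2 (adjusted p = 0.198). The summed level of the 6 markers was 88.2, 87.2 and 86.9 CPM in the WT EBs and 21.4, 18.8 and 22.5 CPM in the Tnfaip2-/- EBs. Eomes, with the highest mean over the 6 samples, had 28.4 ± 1.74 and 18.5 ± 1.54 CPM (SD, n = 3). T, the highest of them in the WT EBs, had 34.6 ± 2.12 and 0.134 ± 0.0875 CPM, and Mesp1 was at 0 counts in Tnfaip2-/- replicate 1. Of 6 markers of neural ectoderm, 5 were tested and all 5 were lower, with a summed level of 117.5, 116.6 and 109.1 CPM in the WT EBs and 49.6, 48.9 and 49.2 CPM in the Tnfaip2-/- EBs. Sox1, the most abundant in both genotypes, had 63.7 ± 2.67 and 20.8 ± 0.270 CPM, and Zic1 was at 0 counts in Tnfaip2-/- replicate 2. The 6 markers of pluripotency were divided, with Zfp42, Nanog and Tfcp2l1 higher and Pou5f1, Esrrb and Klf4 lower. Their summed level was 1546, 1537 and 1560 CPM in the WT EBs and 1384, 1368 and 1360 CPM in the Tnfaip2-/- EBs. Pou5f1, with the highest mean over the 6 samples, had 759.7 ± 9.63 and 419.0 ± 5.97 CPM. Without Pou5f1 the summed level turned from lower to higher, with 777.6, 786.9 and 799.7 CPM in the WT EBs and 963.3, 943.9 and 947.9 CPM in the Tnfaip2-/- EBs. Zfp42, the highest of the 6 in the Tnfaip2-/- EBs, had 229.0 ± 8.94 and 427.9 ± 1.57 CPM. Of 6 markers of primitive endoderm, 2 were higher, Sox7 (0.64 on the log2 scale) and Sox17 (0.45), and 2 were lower, Dab2 and Afp. These are 33.3% in each direction, near the share of all tested genes. DESeq2 did not call Sox17 (adjusted p = 0.117). The list had a summed level of 64.6, 63.8 and 65.3 CPM in the WT EBs and 60.7, 59.3 and 62.3 CPM in the Tnfaip2-/- EBs. Dab2, the most abundant in both genotypes, had 45.9 ± 1.63 and 40.7 ± 1.48 CPM, and without it the sum turned from lower to higher, with genotypes that overlapped (17.8, 19.8 and 18.4 CPM in WT and 18.7, 20.2 and 21.1 CPM in Tnfaip2-/- samples). Afp was at 0 counts in Tnfaip2-/- replicate 2. The summed level of 6 fibroblast markers was low, with 8.56, 9.91 and 8.47 CPM in the WT EBs and 5.81, 6.30 and 6.85 CPM in the Tnfaip2-/- EBs. Thy1, the most abundant in both genotypes, had 4.78 ± 0.403 and 4.27 ± 0.200 CPM, Lum was at 0 counts in 4 of the 6 samples, Dcn in Tnfaip2-/- replicates 2 and 3 and Col3a1 in Tnfaip2-/- replicate 3, and of the 4 markers tested 2 were lower. The part of these cell states in the levels of the exocyst subunits was not tested.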

How the data were processed

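The authors deposited counts of uniquely mapped reads per gene, without normalization, for the 6 samples. Their processing notes name bcl2fastq 1.8.4, TopHat2 2.1.0, featureCounts 1.5.0 and the build GRCm38, and the setting for strand is not given in the sources used here. The paper's methods give a different version of bcl2fastq for the EBs. Counts were used as deposited. Genes were filtered with edgeR's filterByExpr (version 4.0.16, R 4.3.3; minimum count 10, minimum total 15), which kept 17849 of 52636 genes, and scaled by TMM factors from 0.987 to 1.012. Genotypes were compared by edgeR's quasi-likelihood test (robust, not in legacy form), with Benjamini-Hochberg adjustment over all tested genes and a threshold of 0.05. DESeq2 1.42.0 was an alternative. Standard errors were derived from the F statistic, and 95% intervals from its degrees of freedom. Single values per sample were compared by exact permutation. The scripts were tested on simulated counts. Gene models came from GENCODE M21, with the principal transcript as the longest one marked so, and 52489 identifiers matched. The counts rest on an Ensembl release named in the paper's methods. Whether the overlapping genes named here were part of that release was not checked. Named genes are the subunits, Exoc3 and its paralogues, up to 2 largest rises and 2 largest falls in each other list (called, mean of 1 CPM or more), the gene of each marker list with the highest mean over the 6 samples, and the 3 genes nearest by pattern to the subunits with the highest and lowest fold change. Some genes that this rule takes are not reported here. Snap25, Rab11a, T, Tbx6, Sox7, Sox17 and the pluripotency markers other than Pou5f1 were named, and the marker sums without the gene of highest mean and the shares and ratios per kilobase of all exons were added, after their values were seen. Rab3ip was named only as a member of its list, Mesp1, Zic1, Afp, Lum, Dcn and Col3a1 only for their low counts, and the genes next to a subunit only for their position. The members and lists were chosen with earlier results of these data known. For each pair of replicates, squared differences over 13892 genes (13891 for 2 pairs) were on average 1.4 to 2.15 times counting noise, so that no pair was taken as 1 library. This does not show that the replicates were separate cultures. The square root of edgeR's common dispersion was 0.0212, a small spread between replicates on which the adjusted p values rest.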

Additional observations from a re-analysis of the deposited data

How the results depend on the processing

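The call and direction of Exoc2, Exoc4, Exoc5, Exoc6, Exoc6b and Exoc7 held in all 13 alternatives that test for any change (RLE factors, library totals, no filter, a filter at a mean of 1 CPM, DESeq2, the legacy fit, the replicate block and leaving out each of the 6 samples). Over these, the log2 fold change of Exoc4 ranged from 0.60 to 0.65 and that of Exoc6 from 0.64 to 0.70. Exoc1 was called in 0 of the 13, by edgeR or DESeq2, with an adjusted p from 0.170 to 0.620. Tested against a 1.5-fold null, the genes called numbered 2798 in place of 12084 and the subunits called 0 in place of 6. That test calls fewer genes by construction, but Exoc4 and Exoc6, whose changes were above 1.5-fold, could have passed it and did not. The sign of Exoc3, which is near 0, turned with RLE factors (-0.00175), without the filter (-0.018) and with DESeq2 (-0.00782), and ranged from -0.0228 to 0.0253 when 1 sample was left out. The summed level of the subunits was 28% higher with library totals and 30.3% higher as transcripts per 1000000, against 25.6%, and the cause was not tested. Whether same-numbered samples are paired is not stated. Their deviations from the genotype means correlated at -0.07, -0.06 and -0.07 across 15711 genes, no sample correlated best with its own number, and a fit with the replicate block called 11841 genes and 6 subunits. Alternatives for the named genes of other lists were chosen after the data had been seen. Over the genes for which alternatives were run, 785 values kept their sign and their call or lack of one, and 60 lost the call, 44 of them against the 1.5-fold null and 16 for Bmpr1a, Tbx6 and Sox17. Of the other values, 7 turned their sign and 1, that of Exoc8 with library totals, gained the call. Bmpr1a, near the threshold (adjusted p = 0.0489 from edgeR), lost its call in 9 of 14 alternatives. Tbx6 lost its call with DESeq2 and without WT replicate 1 or 3 or Tnfaip2-/- replicate 1 or 2, which left 5 primitive streak markers called. Sox17 lost its call with DESeq2, without WT replicate 3 and without Tnfaip2-/- replicate 3, which left 1 primitive endoderm marker called higher in place of 2. With DESeq2 the COG list had 6 genes called in place of 8, the SNARE list 15 in place of 18 and the binding partners 8 in place of 10. The TRAPP list had 4 higher and 5 lower with DESeq2 or without Tnfaip2-/- replicate 2, in place of 6 and 5. The summed level of the pluripotency markers differed by -11.4% and without Pou5f1 by 20.8%, and that of the primitive endoderm markers by -5.86% and without Dab2 by 7.29%. The other marker sums stayed lower, with -95.9% in place of -76.1% for the primitive streak without Eomes, -43.9% in place of -57% for neural ectoderm without Sox1 and -51.1% in place of -29.6% for fibroblasts without Thy1. The Dsl1 list had 2 genes called in place of 1 without WT replicate 2 or without Tnfaip2-/- replicate 2, and the fibroblast list 1 in place of 2 with the filter at a mean of 1 CPM. Counting limits the precision of Exoc6, Exoc6b, Exoc7 and Exoc8 most, since their counts are the lowest.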

Other observations

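The positions of the subunits offered a further view. Exoc4 and Exoc6 rose apart from the middle of their chromosomes, where the median log2 fold change over tested genes was -0.01 on chromosome 6 (875 genes) and 0.05 on chromosome 19 (537 genes). Of the 5 tested genes on either side of Exoc4, 3 were higher in the Tnfaip2-/- EBs and 5 were lower, with a median log2 fold change of -0.13, and those next to it, Chchd3 and Lrguk, had 0.01 and -0.69. The 10 genes around Exoc6 had a median of 0.32, with 6 higher and 0 lower by edgeR's quasi-likelihood test. Exoc1 lies on chromosome 5, where the median over 1105 tested genes was -0.21, and 7 of the 10 genes around it were lower and 0 were higher, with a median of -0.40. Exoc1 was thus 0.15 above the median of its chromosome on the log2 scale. The 10 genes around Exoc7 had a median of 0.52, with 8 higher and 0 lower, against 0.24 for Exoc7 itself. Around Exoc2 the median was 0.24 (6 higher, 1 lower), around Exoc8 0.18 (5 and 2), around Exoc6b 0.12 (4 and 3) and around Exoc5 0.03 (3 and 3). Over all tested genes 34% were higher and 33.7% were lower. Exoc7 was 0.12 above the median of chromosome 11, itself 0.12 over 1385 genes. The medians were -0.01 on chromosome 13 (Exoc2, 730 genes), -0.10 on chromosome 14 (Exoc5, 711 genes) and 0.07 on chromosome 8 (Exoc8, 951 genes). These windows were chosen after the data had been seen and were not tested.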
